A study of Mus musculus with 15 samples.

Results

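Pressure overload in hearts that overexpress the mitochondrial deacylase SIRT5 was examined in 7 of the 15 whole-heart RNA-seq libraries of the series. They were taken by their labels: 4 hearts of SIRT5OE mice 4 weeks after transverse aortic constriction (TAC) and 3 hearts of SIRT5OE mice 4 weeks after sham surgery. The other 8 libraries came from WT littermates, 4 after TAC and 4 after sham surgery, and served for comparison. All 15 mice were male and 4 to 8 months old at surgery. TAC narrows the transverse aorta, which loads the left ventricle with pressure. In the sham operation the aorta was not banded. Both SIRT5OE groups carry a SIRT5 cassette under the CAGGS promoter in the Col1a1 locus. Its floxed STOP signal was removed with Sox2-Cre, so every tissue overexpresses SIRT5, and the line goes back to 1 targeted clone of embryonic stem cells. Each library is 1 heart of 1 mouse. Below, TAC and sham hearts are SIRT5OE hearts unless WT is written.

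A ventricle under pressure load thickens its wall. Its cardiomyocytes turn on genes of the fetal heart and of muscle stress, and they draw less on fatty acids, the main fuel of the adult heart. Fibroblasts become activated and lay down collagen and the proteins that process and bind it, which stiffens the wall. SIRT5 removes succinyl, malonyl and glutaryl groups from lysines of mitochondrial and other proteins. The question addressed here is which transcripts differ between TAC and sham when SIRT5 is abundant.

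The labels were checked first. Sirt5 (chr13:43365496-43395203, GRCm38) was between 30432 and 43932 normalized counts in the 4 TAC hearts and between 38589 and 42058 in the 3 sham hearts. The 8 WT hearts held 1574 to 2366. With TAC, Sirt5 differed from sham by a log2 fold change of -0.21 (SE 0.12, adjusted p = 0.339). Genes of the cardiomyocyte sarcomere were abundant in all 7 hearts: Tnnt2, cardiac troponin T, had 307660 to 377900 normalized counts in TAC hearts and 419850 to 456210 in sham hearts. Actc1, cardiac actin, had 411930 to 578280 in TAC hearts and 433430 to 446640 in sham hearts. A whole heart mixes cell types, and in such bulk RNA fewer cells of a type and less RNA per cell cannot be told apart. Normalized counts summed to 63960360 to 70497065 in TAC hearts and 68778342 to 73194025 in sham hearts. The share of these counts from the mitochondrial genome was 31.0%, 31.4%, 27.9% and 35.0% in TAC replicates 1 to 4, against 34.6%, 34.5% and 33.8% in sham replicates 1 to 3. The groups overlapped, and the difference of -3.01 percentage points gave p = 0.2286 (exact permutation test, two-sided, smallest possible p 0.0571 with 4 against 3 hearts).

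SIRT5OE TAC replicate 3 stood apart from the other TAC hearts in the genes called below, which its own values helped to select. Over all kept genes it correlated with TAC replicates 1, 2 and 4 at r = 0.964, 0.965 and 0.956. TAC replicate 4 was about as distant, at 0.964 and 0.968 with replicates 1 and 2, which correlated at 0.975. Over the genes called higher below, the median log2 difference of replicate 3 from the sham mean was 2.22, while TAC replicates 1, 2 and 4 had 1.37, 1.24 and 1.34. Over the genes called lower its median was -2.23, and the other 3 hearts had -1.33, -1.28 and -1.46. It was the most extreme of the 4 TAC hearts in 197 of 242 higher genes (81.4%) and in 59 of 88 lower genes (67.0%). DEG and list counts are therefore given with and without this heart, a step chosen after the data were seen.

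Of 40 gene lists examined, markers of activated fibroblasts had the highest median log2 fold change in TAC over sham hearts (2.69), followed by stress genes of the cardiomyocyte (1.55) and fibrillar collagens (1.41). Of 16690 genes with at least 10 normalized counts in at least 3 hearts, 520 (3.12%) were higher and 311 (1.86%) lower at an adjusted p under 0.05 in limma. With an absolute log2 fold change over 1 as well, 242 genes were higher (1.45%) and 88 lower (0.527%), and these are called DEGs here. Cthrc1 and Trem2 among the higher and Tbc1d10c among the lower DEGs are each listed under 2 IDs with identical values, which leaves 240 and 87 distinct genes. All TAC hearts lay above all sham hearts in 239 of the 242 higher DEGs and below them in all 88 lower DEGs. Over all genes tested, 12.6% had TAC hearts all above sham hearts and 11.8% had them all below. The median log2 fold change was 1.43 for the higher and -1.62 for the lower DEGs, and over all genes it was -0.01. DEGs were selected in these same hearts by p and size of change. Their separation and medians therefore follow largely from that selection and are not separate evidence. Most DEGs code for proteins (236 higher and 76 lower), while 6 higher and 11 lower ones are pseudogenes, whose reads can come from a near-identical parent.

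The number of calls depended on single hearts. Without TAC replicate 3, 218 genes were higher (1.31%) and 89 lower (0.533%) at the adjusted p alone, and 116 and 28 were DEGs, 116 and 27 of them among the DEGs of all hearts. Leaving out a sham heart also lowered the counts: without sham replicate 1 there were 82 higher and 10 lower DEGs, without sham replicate 2 there were 130 and 30, and without sham replicate 3 there were 72 and 9. Lower DEGs numbered 143 without WT TAC replicate 3, which shares the estimate of the spread.

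**Figure D1:**
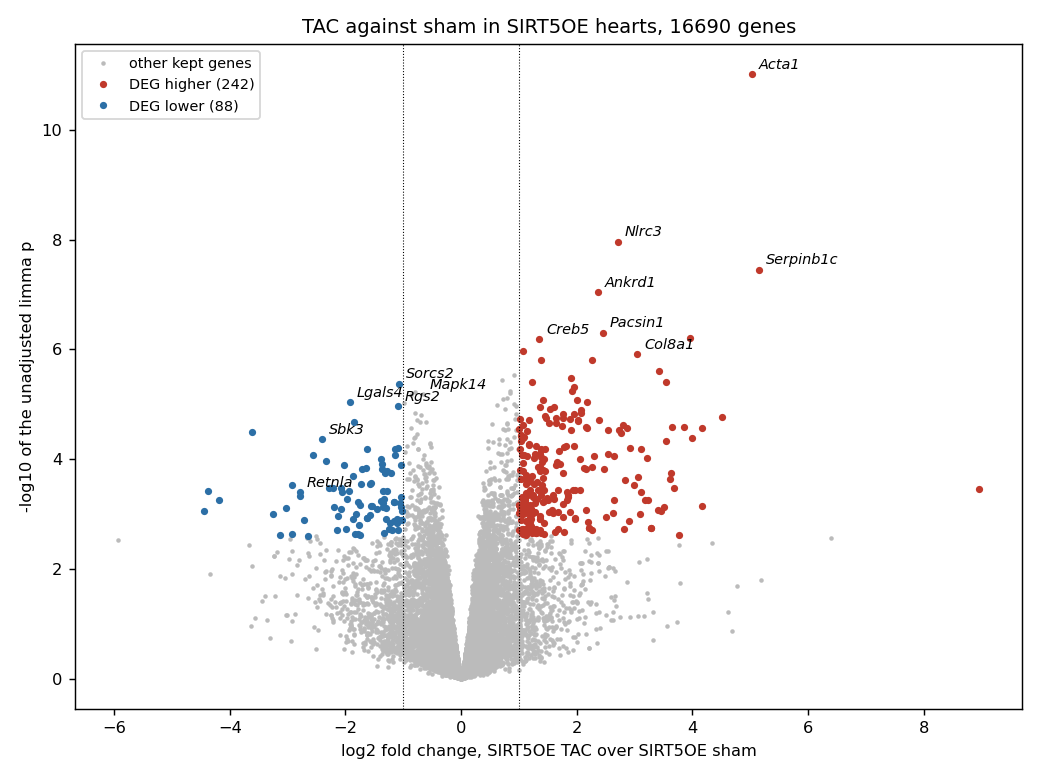
Every kept gene by its log2 fold change in SIRT5OE TAC over SIRT5OE sham hearts (x axis) and the -log10 of its unadjusted limma p (y axis), with the 242 higher DEGs in red, the 88 lower DEGs in blue and other genes in grey. Acta1 lies highest, at a log2 fold change of 5.03, and the dotted lines mark a log2 fold change of 1 in either direction.

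Most stress genes of the cardiomyocyte rose with TAC. Of 22 genes of the fetal and stressed cardiomyocyte, 12 rose and 0 fell, with a median log2 fold change of 1.55. Without TAC replicate 3, 8 rose and the median was 1.10. Skeletal actin Acta1 led all genes by its p: it had 130410, 125420, 203450 and 114630 normalized counts in TAC replicates 1 to 4, against 3276, 6956 and 3414 in sham replicates 1 to 3. Its log2 fold change was 5.03 (SE 0.29, adjusted p = 1.6e-07), and it was 4.85 without TAC replicate 3.

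Promoters of 21 of these 22 genes were available from RefSeq (GRCm38.p6). In 7 of them (33.3%) the 250 bases upstream of the start hold CATTCC or its reverse complement GGAATG, the M-CAT core bound by TEAD factors, searched on both strands. The same letters occur in 13.1% of the promoters of all kept genes that have one, in 16.9% of those of higher DEGs and in 18.9% of those of lower DEGs. Of these 7 genes, Acta1, Ankrd1, Dio2, Mybpc2, Myh7 and Nppb rose. The sequences of 4 of them follow, to show where these letters lie in genes that rose. The same letters were as frequent in lists with few calls, in 35.7% of the promoters of adult sarcomere genes (5 of 14), 41.7% of those of pericyte and smooth muscle markers (5 of 12) and 50% of those of atrial, epicardial and adipocyte markers (4 of 8). Genes and windows are on the minus strand, and capitals mark the M-CAT letters.
Acta1, chr8:123894776-123895025, 5′ to 3′: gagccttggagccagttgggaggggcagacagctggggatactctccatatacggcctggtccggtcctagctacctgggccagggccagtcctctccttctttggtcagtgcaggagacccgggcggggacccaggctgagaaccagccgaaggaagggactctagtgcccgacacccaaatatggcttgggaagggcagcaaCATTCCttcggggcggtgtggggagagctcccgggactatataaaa
Mybpc2, chr7:44524670-44524919, 5′ to 3′: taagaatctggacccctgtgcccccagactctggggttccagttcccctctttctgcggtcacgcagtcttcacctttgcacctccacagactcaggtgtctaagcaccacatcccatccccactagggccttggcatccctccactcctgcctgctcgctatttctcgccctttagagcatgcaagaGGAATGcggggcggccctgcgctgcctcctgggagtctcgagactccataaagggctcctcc
Myh7, chr14:54994627-54994876, 5′ to 3′: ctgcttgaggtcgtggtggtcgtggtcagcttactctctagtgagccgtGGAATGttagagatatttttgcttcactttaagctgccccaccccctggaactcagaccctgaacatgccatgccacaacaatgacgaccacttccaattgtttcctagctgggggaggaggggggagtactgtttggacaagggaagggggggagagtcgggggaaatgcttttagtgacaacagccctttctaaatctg
Dio2, chr12:90739039-90739288, 5′ to 3′: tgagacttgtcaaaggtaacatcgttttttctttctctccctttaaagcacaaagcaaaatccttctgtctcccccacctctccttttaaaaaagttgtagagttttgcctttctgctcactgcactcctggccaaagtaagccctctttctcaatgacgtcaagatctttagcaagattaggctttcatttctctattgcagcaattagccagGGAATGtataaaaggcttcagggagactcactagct

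The M-CAT letters start 46 bases before the start site in Acta1, 62 in Mybpc2, 201 in Myh7 and 36 in Dio2. Myh7 has a second start site, whose window is not shown, and the RefSeq start of Dio2 lies 600 bases from that of GENCODE. A match is a description of the letters in this window, and binding was not measured. Letters of AP-1, the CArG box, GATA and ERRE were searched in the same windows. They occur in 14.3%, 9.52%, 9.52% and 0% of the promoters of the stress genes, against 6.08%, 1.42%, 7.99% and 3.62% over all kept genes. AP-1 letters occur in 11% of the promoters of higher DEGs and 7.55% of those of lower DEGs.

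Ankrd1 (chr19:36111961-36120099), a titin-bound repressor of cardiac genes that rises under stretch, had 202600, 180120, 337870 and 181860 normalized counts in TAC replicates 1 to 4. The sham hearts held 38010, 54582 and 36647. Every TAC heart was above every sham heart, and the log2 fold change was 2.36 (SE 0.26, adjusted p = 0.000373). Mybpc2, the fast skeletal myosin-binding protein C, reached 2564, 3126, 1800 and 2453 with TAC, against 717, 1003 and 703 in sham hearts. TAC replicate 3 was the lowest of the TAC hearts for this gene, and the log2 fold change was 1.61 (SE 0.26, adjusted p = 0.00491) with it and 1.76 without it. Xirp2 encodes an actin-binding protein of the intercalated disc. Its counts were 100360, 87545, 213320 and 86062 in TAC hearts and 30229, 29656 and 24075 in sham hearts, a log2 fold change of 2.02 (SE 0.34, adjusted p = 0.00548).

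Other members of this group rose by smaller steps or mostly in 1 heart. Dio2, the deiodinase that makes active thyroid hormone, had 291, 442, 4060 and 420 normalized counts in TAC replicates 1 to 4, against 68.0, 100.8 and 69.3 in sham hearts. TAC replicate 3 was far above the others, and the log2 fold change was 3.12 (SE 0.70, adjusted p = 0.0209) with it and 2.26 (adjusted p = 0.017) without it. Synpo2l and Enah, which bind actin, rose with log2 fold changes of 1.43 and 1.05, and the calcineurin inhibitor Rcan1, a target gene of calcineurin itself, rose by 1.27. For Enah and Rcan1 the adjusted p without TAC replicate 3 was 0.053 and 0.071. Sprr1a, a stress-induced small proline-rich protein, had 208, 76.9, 801 and 20.6 counts with TAC and 7.72, 18 and 4.23 in sham hearts, without passing the test (log2 fold change 3.77, SE 1.11, adjusted p = 0.0608). Fhl1 (1.15, adjusted p = 0.0683) and Flnc (0.70, adjusted p = 0.122) did not pass either.

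Few genes of the adult sarcomere and of calcium cycling passed the test. Among 16 adult sarcomere genes 1 rose and 0 fell, with a median log2 fold change of 0.04. Myoz2, a calcineurin-binding protein of the Z-disc, was the one that rose, with 52786, 46625, 52232 and 52672 normalized counts in TAC hearts against 40805, 37366 and 39301 in sham hearts (log2 fold change 0.38, SE 0.10, adjusted p = 0.0365). Leaving out TAC replicate 3 gave a log2 fold change of 0.37 with an adjusted p of 0.095, and 0 genes of the list were called. None of 16 calcium cycling genes passed the test, with or without TAC replicate 3, and their median was -0.24. In 7 of the 16 every TAC heart was below every sham heart, a pattern found in 11.8% of all genes tested. The calcium pump Atp2a2 had 594220, 632630, 395590 and 667980 counts in TAC hearts, against 879930, 840510 and 825650 in sham hearts. All 4 TAC values lay below the sham values, yet the log2 fold change of -0.60 had an SE of 0.27 and an adjusted p of 0.213. Pln, the inhibitor of that pump, also lay lower in every TAC heart (log2 fold change -0.64, SE 0.22, adjusted p = 0.104).

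**Figure D2:**
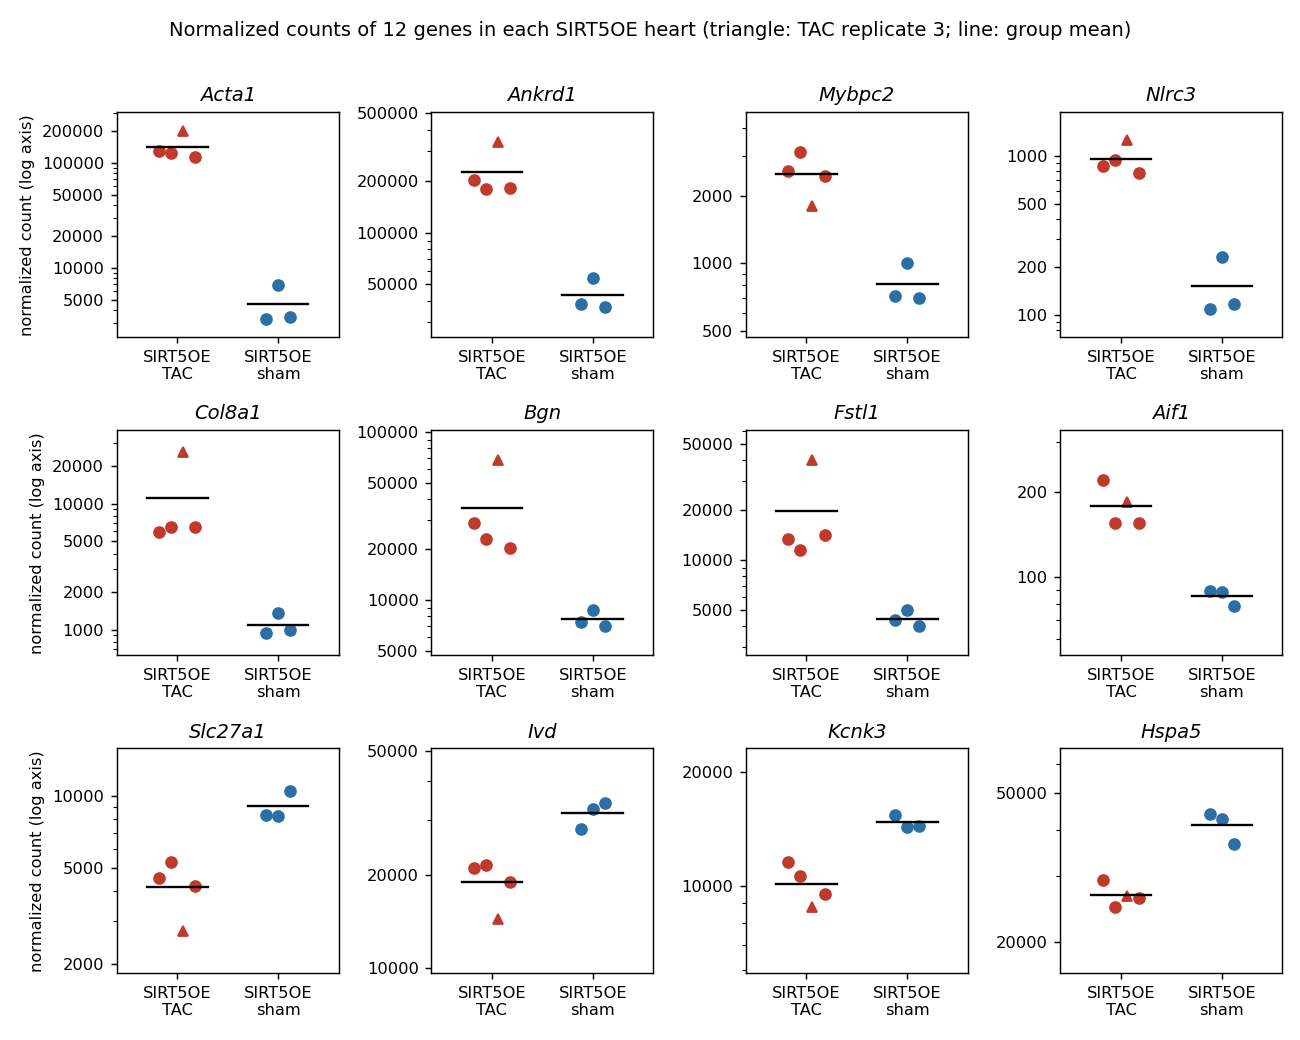
Normalized counts on log axes of 12 genes in the 4 SIRT5OE TAC hearts (red, left in each panel) and 3 SIRT5OE sham hearts (blue, right), with black lines at the group means and a triangle for TAC replicate 3. In all 12 panels the TAC hearts lie on one side of the sham hearts, and TAC replicate 3 is the farthest TAC heart in Acta1, Ankrd1, Nlrc3, Col8a1, Bgn, Fstl1, Slc27a1, Ivd and Kcnk3.

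Collagen genes gave the most calls of the matrix groups. Of 10 fibrillar collagen genes, which build the load-bearing fibers of the scar, 5 rose and 0 fell with TAC (median log2 fold change 1.41), and 4 rose without TAC replicate 3. Col3a1 had 33608, 23477, 66857 and 20673 normalized counts in TAC hearts and 9469, 9404 and 9204 in sham hearts. The sham hearts were close together, all TAC hearts lay above them, and the log2 fold change was 1.79 (SE 0.33, adjusted p = 0.00833). Col1a2 and Col5a2 rose by log2 fold changes of 1.65 and 1.94. Col1a1, whose locus carries the SIRT5 cassette in both groups, had 9298, 8151, 20106 and 5517 counts with TAC and 3102, 3580 and 3480 in sham hearts, a log2 fold change of 1.50 (SE 0.35, adjusted p = 0.0245). WT sham replicates 1 to 4, which lack the cassette, had 3263, 3814, 3159 and 3048 Col1a1 counts. Whether reads from the cassette count toward Col1a1 was not tested.

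Basement membrane, network and microfibrillar collagens gave the broader rise: 15 of 24 were higher and 0 lower (median 0.94), and 12 were higher without TAC replicate 3. Col8a1, a short-chain collagen of remodelled vessel and heart wall, had 5892, 6474, 25396 and 6489 normalized counts in TAC hearts, against 937, 1350 and 992 in sham hearts. Its log2 fold change was 3.04 (SE 0.40, adjusted p = 0.00228), and 2.54 without the highest heart. Col6a3, a chain of beaded-filament collagen, had 4945, 3441, 4137 and 2849 counts with TAC and 1668, 1774 and 1408 in sham hearts (log2 fold change 1.23, SE 0.18, adjusted p = 0.00386). Without TAC replicate 3 it still passed, with an adjusted p of 0.00629. Col15a1, Col14a1 and Col6a1 rose by 1.37, 1.77 and 1.02. Of the collagen IV chains of the basement membrane, Col4a1, Col4a2, Col4a3, Col4a4 and Col4a5 rose, with log2 fold changes of 0.70 to 1.28. Col12a1 reached 6193 counts in TAC replicate 3, against 355 to 438 in the other 3 TAC hearts and 37.0 to 102 in sham hearts.

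Enzymes and chaperones that fold, cut and crosslink collagen followed, with 7 of 21 higher and 0 lower (median 0.66, 4 higher without TAC replicate 3). Sparc, a collagen-binding secreted protein, had 34714, 32585, 72760 and 32838 normalized counts in TAC hearts and 12324, 16556 and 13386 in sham hearts (log2 fold change 1.54, SE 0.25, adjusted p = 0.0051). Loxl2, a lysyl oxidase that crosslinks collagen, rose by 1.71 (SE 0.34, adjusted p = 0.0118), and the procollagen C-proteinase enhancers Pcolce and Pcolce2 rose by 0.94 and 1.15. Lox, the founding member of the lysyl oxidases, had 1074, 712, 6957 and 557 counts with TAC and 248, 208 and 232 in sham hearts. No sham heart reached a TAC heart, but the spread among TAC hearts was wide and the log2 fold change of 2.51 did not pass (SE 0.77, adjusted p = 0.0697).

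Matricellular proteins, which signal from the matrix without building it, rose in 12 of 21 cases and fell in 0 (median 1.23, 8 higher without TAC replicate 3). Tenascin C, Tnc, had 855, 313, 382 and 188 normalized counts in TAC hearts, against 50.7, 77.9 and 31.8 in sham hearts. TAC replicate 1 was the highest here, and the log2 fold change was 2.87 (SE 0.49, adjusted p = 0.00577) with TAC replicate 3 and 2.86 without it. Smoc2 showed a small and even rise, with 5991, 5204, 5898 and 5876 counts with TAC and 4108, 4291 and 4070 in sham hearts (log2 fold change 0.46, SE 0.08, adjusted p = 0.00762). Ccn2, the connective tissue growth factor, had 11661, 9574, 59597 and 12770 in TAC hearts and 2780, 4492 and 4125 in sham hearts. Its log2 fold change of 2.20 (SE 0.57, adjusted p = 0.0359) became 1.60 with an adjusted p of 0.079 when TAC replicate 3 was left out. Ccn5, a CCN protein without the growth factor-like C terminus of Ccn2, rose by 2.54, and fibronectin Fn1 by 1.67. Spp1, osteopontin, did not pass (log2 fold change 3.22, SE 1.03, adjusted p = 0.0814).

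Proteoglycans were higher in 7 of 15 cases and lower in 0 (median 0.90, 5 higher without TAC replicate 3). Biglycan, Bgn, a small leucine-rich proteoglycan that binds collagen and TGF-beta, had 28608, 23141, 68394 and 20529 normalized counts in TAC hearts, against 7447, 8750 and 7022 in sham hearts (log2 fold change 2.01, SE 0.31, adjusted p = 0.0049). Versican, Vcan, rose by 1.88 (SE 0.31, adjusted p = 0.00548). Lumican, Lum, was even among hearts, with 5893, 5716, 6736 and 6174 counts with TAC and 3019, 3095 and 2621 in sham hearts. Its log2 fold change was 1.07 (SE 0.21, adjusted p = 0.0117), and 1.03 without TAC replicate 3.

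Elastic fiber and microfibril genes were higher in 8 of 17 cases and lower in 2 (median 0.73). Without TAC replicate 3, 4 were higher and 0 lower. Mfap4 had 2201, 1271, 6050 and 1424 normalized counts in TAC hearts, against 347, 500 and 436 in sham hearts (log2 fold change 2.39, SE 0.40, adjusted p = 0.00548). Fibrillin 1, Fbn1, the backbone of microfibrils, rose by 1.44. Elastin, Eln, rose by 1.12 (SE 0.29, adjusted p = 0.0353), but TAC replicate 4 with 1760 counts fell within the sham range of 1264 to 1808. Emilin2 and Ltbp1, which binds latent TGF-beta, fell by 0.75 and 0.34 on the log2 scale.

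Matrix proteases and their inhibitors were mixed, with 6 of 29 higher and 1 lower (median 0.39, 4 and 1 without TAC replicate 3). Adamtsl2, a secreted glycoprotein of microfibrils, had 2177, 1294, 3487 and 1403 normalized counts in TAC hearts and 329, 446 and 440 in sham hearts (log2 fold change 2.26, SE 0.30, adjusted p = 0.00235). Gelatinase A, Mmp2, rose by 1.38. The metalloprotease inhibitor Timp1 had 1087, 472, 2222 and 258 counts with TAC and 97, 97.8 and 65.3 in sham hearts. It passed the test with all hearts (log2 fold change 3.10, SE 0.77, adjusted p = 0.0311) and not without TAC replicate 3 (adjusted p = 0.095). Adamts7 was the member that fell, with 637, 690, 522 and 732 counts in TAC hearts against 1318, 1190 and 1450 in sham hearts (log2 fold change -1.04, SE 0.21, adjusted p = 0.0122).

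Genes of TGF-beta and activin signaling, the pathway best known for activating fibroblasts, were higher in 8 of 34 cases and lower in 0 (median 0.33, 3 higher without TAC replicate 3). Fstl1, a secreted follistatin-like protein, had 13318, 11481, 40168 and 14174 normalized counts in TAC hearts, against 4358, 5003 and 4026 in sham hearts (log2 fold change 1.95, SE 0.32, adjusted p = 0.00548). Among the ligands, Tgfb2 and Tgfb3 rose by 1.53 and 0.98. Tgfb1 did not pass, with 1245, 1108, 1347 and 872 counts with TAC and 934, 860 and 861 in sham hearts (log2 fold change 0.35, SE 0.20, adjusted p = 0.308). Bambi, a pseudoreceptor that dampens the pathway, rose by 0.91.

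**Figure D3:**
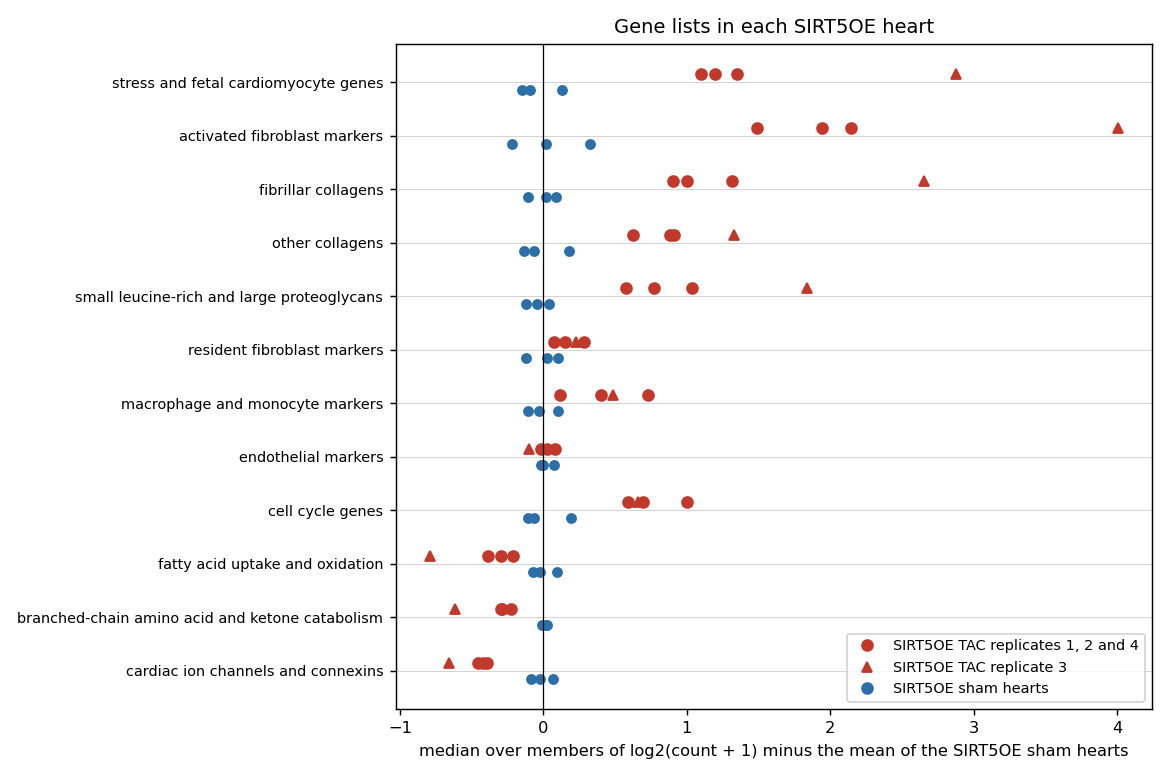
Median over the members of 12 gene lists of log2(normalized count + 1) minus the SIRT5OE sham mean (x axis), for each SIRT5OE TAC heart (red, upper row of each list, triangle for replicate 3) and each sham heart (blue, lower row). TAC replicate 3 stands far to the right for stress genes (2.87, against 1.10 to 1.35 in the other TAC hearts) and activated fibroblast markers (4.01, against 1.49 to 2.15), and within the other TAC hearts for cell cycle genes (0.66, against 0.59 to 1.00).

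Markers of activated fibroblasts rose in more cases and by more than those of resident fibroblasts. Of 18 markers of activated fibroblasts 13 rose and 0 fell, with a median log2 fold change of 2.69, and 11 rose without TAC replicate 3 (median 1.98). Their summed counts were 53640, 47145, 241000 and 41287 in TAC hearts and 12393, 15703 and 11261 in sham hearts. Markers of resident fibroblasts had a median of 0.15, with 6 of 18 higher and 0 lower, and 5 higher without TAC replicate 3. Every TAC heart was above every sham heart in 8 of the 18, against 12.6% of all genes tested, and below in 3, against 11.8%. The summed counts of resident markers were 155980, 156900, 204800 and 142530 in TAC hearts and 138660, 132460 and 120810 in sham hearts. The 6 that rose were Col15a1, Lamc1, Lum, Cd248, Pi16 and Dcn, 4 of which encode matrix proteins and 3 of which (Col15a1, Lum, Dcn) also stand in the collagen and proteoglycan lists. Many activated markers also stand in other lists, among them Postn, Cilp, Tnc and Thbs4 in the matricellular list and Col8a1 in a collagen list. Lox also stands among the collagen enzymes, Fmod among the proteoglycans and Ltbp2 among the elastic fiber genes. Acta2 is also a pericyte and smooth muscle marker. The activated marker list is therefore not separate evidence beside those lists. The resident markers Pdgfra and Tcf21 did not pass: Pdgfra had 2505, 2859, 2797 and 2559 normalized counts with TAC and 2735, 2399 and 2226 in sham hearts (log2 fold change 0.13, SE 0.12, adjusted p = 0.565), and Tcf21 had a log2 fold change of 0.17 (SE 0.17, adjusted p = 0.587). Acta2, smooth muscle actin, which marks myofibroblasts and also vessel walls, had 5509, 4636, 4122 and 4154 counts with TAC and 4337, 4916 and 3436 in sham hearts. These overlapped, and the log2 fold change was 0.13 (SE 0.21, adjusted p = 0.77).

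Few markers of immune and vascular cells passed the test. Of 25 macrophage and monocyte markers 3 rose and 1 fell, against 3.12% and 1.86% of all genes tested. Their median log2 fold change was 0.46, and without TAC replicate 3 the counts were again 3 and 1. Every TAC heart was above every sham heart in 8 of the 25 and below in 1, against 12.6% and 11.8% of all genes. The 25 markers had 19 positive log2 fold changes. Their summed counts were 44726, 36642, 34104 and 30052 in TAC hearts and 31880, 28566 and 26618 in sham hearts, and overlapped in TAC replicate 4. Aif1 had 220, 155, 184 and 155 normalized counts in TAC hearts against 88.6, 88.5 and 78.8 in sham hearts (log2 fold change 1.04, SE 0.19, adjusted p = 0.0076). Adgre1, which encodes F4/80, rose by 0.84 and Trem2, a receptor of lipid-handling macrophages, by 1.21. The pan-macrophage markers Cd68 (0.80, adjusted p = 0.0605) and Csf1r (0.29, adjusted p = 0.083) lay higher in every TAC heart without passing the test.

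Retnla, a product of alternatively activated macrophages, went the other way. It had 60.2, 60.5, 7.78 and 53.3 normalized counts in TAC hearts, against 290, 274 and 204 in sham hearts (log2 fold change -2.79, SE 0.63, adjusted p = 0.0209). None of 22 lymphocyte and neutrophil markers passed the test, with or without TAC replicate 3. Of 21 endothelial markers 0 rose and 1 fell, also without TAC replicate 3, and their summed counts overlapped (116590 to 134060 with TAC, 126770 to 130950 in sham hearts). The one that fell was Angpt1, the ligand of the endothelial receptor Tek made by perivascular and muscle cells, with 1275, 1182, 610 and 1093 counts in TAC hearts and 3940, 2448 and 3083 in sham hearts (log2 fold change -1.63, SE 0.30, adjusted p = 0.00833). Of 16 pericyte and smooth muscle markers, Cspg4 rose by 0.73 and none fell. Its adjusted p without TAC replicate 3 was 0.0965, and 0 of these markers were called. Among 12 atrial, epicardial and adipocyte markers, Nppa alone passed, with or without TAC replicate 3. This atrial natriuretic peptide gene, which is also a stress gene of the ventricle, rose by 3.65 and was highest in TAC replicate 3. The median of this list was -1.22, the most negative of the 40 lists, with 3 of 12 log2 fold changes positive. The epicardial keratin Krt19 had 4.01, 22.4, 3.51 and 0 counts with TAC and 21.2, 15.5 and 22.2 in sham hearts, and the atrial light chain Myl7 had 3.89, 14.2, 11.0 and 0 with TAC and 32.4, 15.8 and 8.52 in sham hearts. Their part in other results was not tested. None of 7 erythrocyte markers passed, with or without TAC replicate 3.

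Inflammatory mediators were called at a share near that of all genes tested. Of 41 chemokines, cytokines and their receptors 2 rose and 1 fell, against 3.12% and 1.86% of all genes. Their median was 0.32 with 30 of 41 log2 fold changes positive, and 0 were called without TAC replicate 3. Every TAC heart was above every sham heart in 8 of the 41 and below in 2, against 12.6% and 11.8% of all genes. Tnfrsf12a, the receptor of the cytokine TWEAK, had 5171, 4540, 6325 and 2720 normalized counts in TAC hearts and 1511, 2400 and 1558 in sham hearts (log2 fold change 1.33, SE 0.29, adjusted p = 0.0201). Sele, the endothelial E-selectin, rose by 1.04. The eosinophil chemokine Ccl11 had 127, 74.3, 17.3 and 74.4 counts with TAC and 279, 268 and 280 in sham hearts (log2 fold change -2.20, SE 0.53, adjusted p = 0.0273). Il6 did not pass: it had 12, 5.16, 69.0 and 2.83 counts in TAC hearts and 11.6, 0 and 0.368 in sham hearts. Among 19 acute phase and serpin genes 3 rose and 0 fell, and 2 rose without TAC replicate 3. Serpinf1, the secreted serpin PEDF, had 2624, 2049, 7270 and 2535 with TAC and 946, 1042 and 944 in sham hearts (log2 fold change 1.69, SE 0.32, adjusted p = 0.00871).

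**Figure D4:**
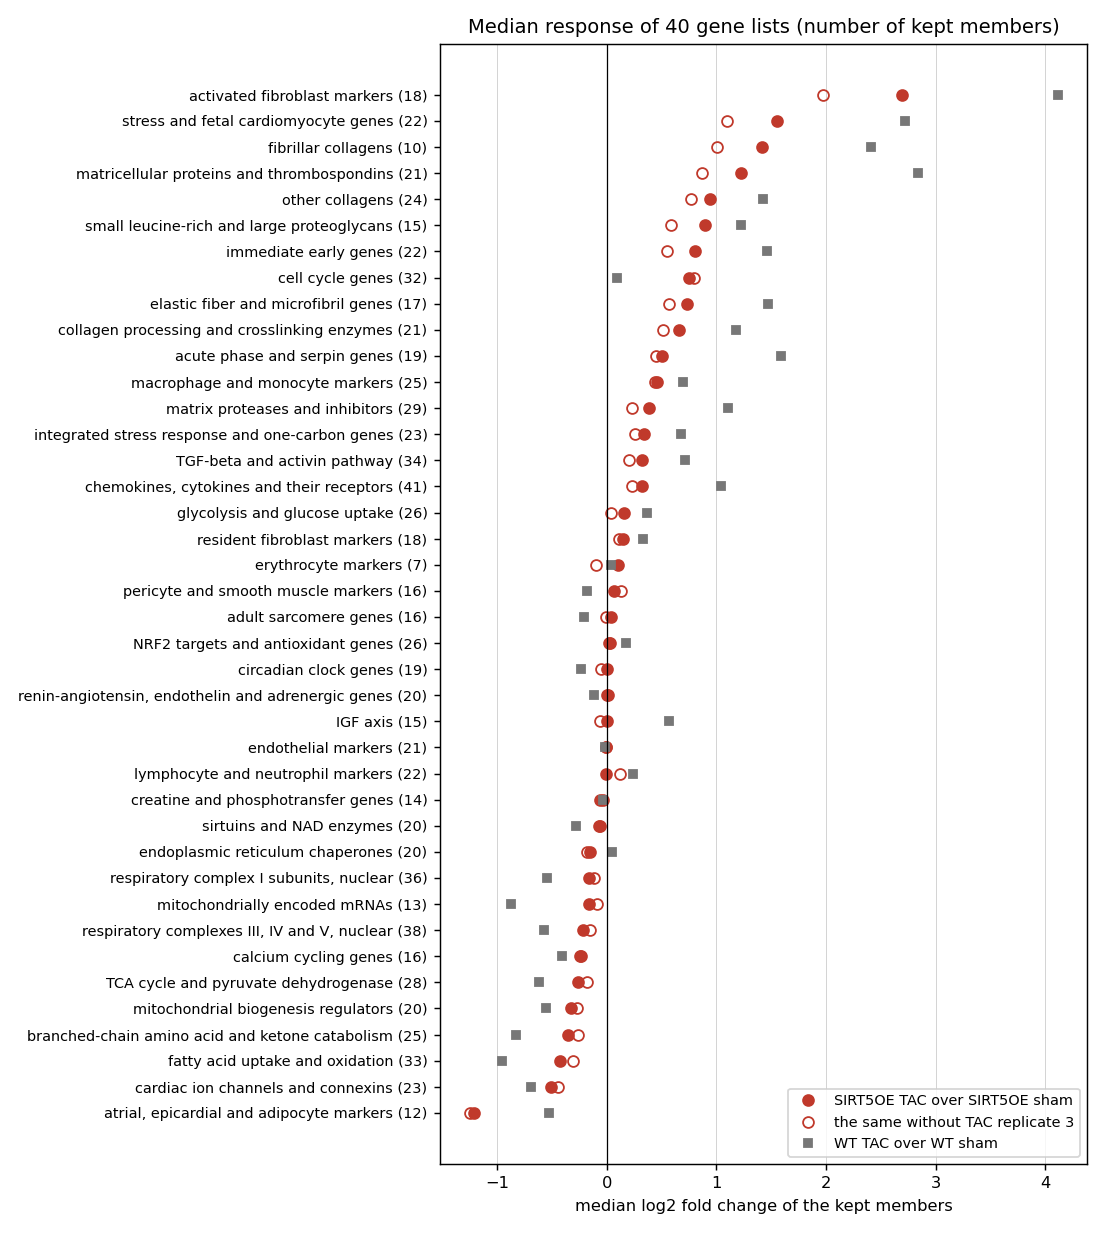
Median log2 fold change of the kept members of 40 gene lists (x axis) in SIRT5OE TAC over SIRT5OE sham hearts (filled red circles), in the same comparison without TAC replicate 3 (open red circles) and in WT TAC over WT sham hearts (grey squares). Activated fibroblast markers are farthest right in SIRT5OE hearts (2.69, and 1.98 without that heart) and in WT hearts (4.12), and cell cycle genes lie farther right in SIRT5OE (0.75) than in WT hearts (0.10). Of the cell cycle genes, 4 were called higher in SIRT5OE hearts, and 4 higher and 2 lower in WT hearts. For the interaction of genotype and TAC, 0 of them had an adjusted p under 0.05 in limma, so a difference between genotypes is not shown.

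Genes of fatty acid use fell in part. Of 33 genes of fatty acid uptake and oxidation 0 rose and 7 fell, with a median log2 fold change of -0.43, and 26 of the 33 had all TAC hearts below all sham hearts, against 11.8% of all genes tested. Without TAC replicate 3 only Slc27a1 was called and the median was -0.31. Slc27a1, a fatty acid transporter of the cell membrane, had 4520, 5286, 2728 and 4198 normalized counts in TAC hearts, against 8317, 8242 and 10480 in sham hearts (log2 fold change -1.14, SE 0.21, adjusted p = 0.00833). Cd36, the main fatty acid translocase, had 104700, 109880, 75541 and 103650 counts with TAC and 165850, 138500 and 136130 in sham hearts (log2 fold change -0.59, SE 0.16, adjusted p = 0.0468). The mitochondrial thiolase Acaa2 fell by 0.93 and the malonyl-CoA decarboxylase Mlycd by 0.69 on the log2 scale. Pdk4, the kinase that turns off pyruvate dehydrogenase, had 17836, 21572, 14088 and 12395 with TAC and 45750, 22523 and 35040 in sham hearts (log2 fold change -1.04, SE 0.24, adjusted p = 0.0231). Cpt1b, the gate for fatty acids into the mitochondrion, did not pass (log2 fold change -0.30, SE 0.13, adjusted p = 0.181), nor did the medium-chain dehydrogenase Acadm (-0.51, adjusted p = 0.0556).

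Breakdown of branched-chain amino acids and ketones showed the same partial fall, with 0 of 25 higher and 6 lower (median -0.35, 2 lower without TAC replicate 3). In 16 of the 25 every TAC heart was below every sham heart, against 11.8% of all genes tested. Ivd, isovaleryl-CoA dehydrogenase of leucine breakdown, had 20995, 21584, 14458 and 18898 normalized counts in TAC hearts, against 28134, 32536 and 34009 in sham hearts (log2 fold change -0.75, SE 0.15, adjusted p = 0.0126). Bcat2, the mitochondrial aminotransferase at the start of the pathway, was even among hearts, with 5748, 4981, 5230 and 5070 with TAC and 6790, 7138 and 7354 in sham hearts (log2 fold change -0.43, SE 0.09, adjusted p = 0.0156). Bckdha, a subunit of the branched-chain dehydrogenase, fell by 0.72 on the log2 scale.

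The core of mitochondrial respiration passed the test in few genes. One gene fell among 28 of the TCA cycle and pyruvate dehydrogenase, Idh3g, a subunit of isocitrate dehydrogenase (log2 fold change -0.48, SE 0.11, adjusted p = 0.0252). Another fell among 36 nuclear subunits of complex I, Ndufv1 (-0.49, SE 0.13, adjusted p = 0.042). Their adjusted p without TAC replicate 3 was 0.0793 and 0.132, and 0 genes of either list were called. Every TAC heart was below every sham heart in 16 of the 28 TCA genes and in 4 of the 36 complex I genes, a pattern found in 11.8% of all genes tested. None of 38 nuclear subunits of complexes III, IV and V and none of 13 mRNAs of the mitochondrial genome passed, with or without TAC replicate 3, and their medians were -0.21 and -0.16. The largest negative log2 fold change of the TCA genes belonged to Sdhc, a membrane anchor of succinate dehydrogenase, and did not pass (-1.18, adjusted p = 0.119). It had 15411, 13063, 12777 and 15252 normalized counts with TAC, and the sham hearts were far apart with 49763, 16121 and 40028.

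Regulators of mitochondrial genes were lower in 3 of 20 cases and higher in 0 (median -0.33). Klf15, a transcription factor of cardiac lipid metabolism, had 1885, 2170, 1217 and 1854 normalized counts in TAC hearts and 3370, 2902 and 3545 in sham hearts (log2 fold change -0.90, SE 0.18, adjusted p = 0.0117). It was the one also called without TAC replicate 3, while the nuclear receptors Pparg and Esrra fell by 0.54 and 0.47 with all hearts. Of 26 glycolysis and glucose uptake genes 1 rose and 1 fell, and 0 were called without TAC replicate 3. The platelet-type phosphofructokinase Pfkp rose by 1.19 (SE 0.29, adjusted p = 0.03). Pfkfb1, which makes an activator of phosphofructokinase, had 325, 331, 125 and 347 counts with TAC and 964, 940 and 1122 in sham hearts (log2 fold change -1.94, SE 0.43, adjusted p = 0.0206). None of 14 creatine and phosphotransfer genes passed, but without TAC replicate 3 the adenylate kinase Ak4 did (log2 fold change -0.54, adjusted p = 0.0472). Among 20 sirtuin and NAD genes, the mitochondrial NAD kinase Nadk2 fell by 0.71 on the log2 scale (SE 0.14, adjusted p = 0.0127), the one call also without TAC replicate 3, and Sirt3 did not pass (-0.30, SE 0.14, adjusted p = 0.228).

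Cardiac ion channels were lower in 4 of 23 cases and higher in 0, with a median of -0.51, and 2 stayed called without TAC replicate 3. In 13 of the 23 every TAC heart was below every sham heart, against 11.8% of all genes tested. All 4 carry potassium current. Kcnk3, the background channel TASK-1, had 11576, 10654, 8817 and 9538 normalized counts in TAC hearts, against 15420, 14324 and 14463 in sham hearts (log2 fold change -0.55, SE 0.10, adjusted p = 0.00787). Kcnj5, a subunit of the acetylcholine-gated channel, had 3143, 3008, 2452 and 3294 with TAC and 5716, 4641 and 4618 in sham hearts (log2 fold change -0.75, SE 0.14, adjusted p = 0.00833). Kcnd3 and Kcnj12, which carry transient outward and inward rectifier current, fell by 0.70 and 0.49 on the log2 scale. The transient outward subunits Kcnd2 (-0.998, adjusted p = 0.0781) and Kcnip2 (-0.68, adjusted p = 0.295) lay lower in every TAC heart without passing. Gja1, the main ventricular connexin, overlapped between the groups.

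Neurohormonal genes moved both ways, with 2 of 20 higher and 2 lower, and 2 higher and 1 lower without TAC replicate 3. The alpha-1B adrenergic receptor Adra1b had 1069, 940, 561 and 715 normalized counts in TAC hearts, against 2453, 1830 and 1908 in sham hearts (log2 fold change -1.36, SE 0.27, adjusted p = 0.0118). Edn3, endothelin 3, had 605, 605, 516 and 448 with TAC and 183, 201 and 91.1 in sham hearts (log2 fold change 1.84, SE 0.41, adjusted p = 0.0207). It did not rest on TAC replicate 3, without which the log2 fold change was 1.86. Ace, angiotensin-converting enzyme, rose by 1.14, and Corin, the protease that activates natriuretic peptides, fell by 0.60 on the log2 scale (adjusted p = 0.0586 without TAC replicate 3). In the IGF axis the binding proteins Igfbp5 and Igfbp7 rose by 0.79 and 1.36, 2 of 15 genes with or without TAC replicate 3, and Igf1 did not pass (0.77, adjusted p = 0.067).

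Stress pathways outside the sarcomere gave calls in a minority of genes, against 3.12% higher and 1.86% lower over all genes tested. Of 23 integrated stress response and one-carbon genes 3 rose and 0 fell, and only Mthfd2 rose without TAC replicate 3. Every TAC heart was above every sham heart in 9 of the 23 and below in 1, against 12.6% and 11.8% of all genes. Mthfd2, the mitochondrial folate enzyme, had 254, 326, 316 and 354 normalized counts in TAC hearts and 146, 179 and 98.7 in sham hearts (log2 fold change 1.17, SE 0.21, adjusted p = 0.00817), and Mthfd1l and Asns rose by 1.85 and 1.06. Among 26 antioxidant genes Nqo1 and Gpx8 rose by 0.40 and 0.51 and Gstm1 fell by 0.55 on the log2 scale. None was called without TAC replicate 3. In 8 of the 26 every TAC heart was above every sham heart, and in 3 below. Of 20 chaperones of the endoplasmic reticulum 0 rose and 2 fell, and 1 fell without TAC replicate 3. In 3 of the 20 every TAC heart was below every sham heart, and in 0 above. Hspa5, the master chaperone BiP, had 29338, 24760, 26636 and 26326 counts with TAC and 43926, 42596 and 36526 in sham hearts (log2 fold change -0.61, SE 0.10, adjusted p = 0.00549). It was the same -0.61 without TAC replicate 3. Hyou1, another chaperone there, fell by 0.56 on the log2 scale (adjusted p = 0.0575 without TAC replicate 3).

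Cell cycle genes lay higher with TAC in most cases, although few passed the test. Of 32 such genes 4 rose and 0 fell, and 22 had every TAC heart above every sham heart, against 12.6% of all genes tested. Their median was 0.75. Without TAC replicate 3 the median was 0.80 and 1 was called. Mcm6, a subunit of the replicative helicase, had 801, 595, 771 and 636 normalized counts in TAC hearts, against 413, 458 and 406 in sham hearts (log2 fold change 0.71, SE 0.14, adjusted p = 0.00956). Tyms, thymidylate synthase, rose by 1.31, the cyclin Ccnd2 by 0.68 and the helicase subunit Mcm3 by 0.76. Mki67, the proliferation marker Ki-67, had 1011, 803, 658 and 913 counts with TAC and 321, 387 and 315 in sham hearts. The groups did not overlap, but the log2 fold change of 1.30 had an SE of 0.50 and an adjusted p of 0.141.

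Immediate early genes were higher in 3 of 22 cases and lower in 0 (median 0.81, 1 higher without TAC replicate 3). Egr3 had 173, 197, 736 and 407 normalized counts in TAC hearts and 38.7, 92.5 and 50.2 in sham hearts (log2 fold change 2.47, SE 0.50, adjusted p = 0.0131). Ier5 and Btg2 rose by 1.09 and 1.06, with TAC replicates 3 and 4 above the other 2 TAC hearts for both. Fos did not pass (1.45, SE 0.66, adjusted p = 0.21). None of 19 circadian clock genes passed, with or without TAC replicate 3, with a median of 0.01.

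Some of the strongest single responses belonged to no such group. Nlrc3, an intracellular receptor that restrains T cell and innate signaling, had 859, 937, 1249 and 782 normalized counts in TAC hearts, against 108, 231 and 117 in sham hearts. The log2 fold change of Nlrc3 was 2.71 (SE 0.25, adjusted p = 9.03e-05), and it was 2.57 without TAC replicate 3. Pacsin1, a membrane-bending protein best known from neurons, had 179, 169, 172 and 142 with TAC and 25.3, 30.2 and 32.8 in sham hearts (log2 fold change 2.45, SE 0.30, adjusted p = 0.00155). The transcription factor Creb5 had 717, 728, 1158 and 929 in TAC hearts and 307, 397 and 318 in sham hearts (log2 fold change 1.35, SE 0.17, adjusted p = 0.00155). Tbx15, a T-box factor of skeletal muscle and fat, had 201, 249, 273 and 328 with TAC and 13.1, 50.9 and 35.6 in sham hearts, a log2 fold change of 3.12 (SE 0.58, adjusted p = 0.00833). In each of these 4 genes every TAC heart was above every sham heart, and without TAC replicate 3 the log2 fold changes of Pacsin1, Creb5 and Tbx15 were 2.43, 1.21 and 3.09. The actin-sequestering thymosin Tmsb10 and the integrin Itga9 rose by 1.38 and 1.07. Atp6v0a4, a subunit of the vacuolar proton pump, was highest in that heart, with 137, 132, 644 and 97.1 in TAC hearts and 11.1, 8.92 and 16.2 in sham hearts. The log2 fold change was 3.86 (SE 0.66, adjusted p = 0.00577), and 3.25 without it.

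The largest falls belonged to genes of several kinds. Acot1, a cytosolic acyl-CoA thioesterase, had 248, 312, 81.2 and 407 with TAC and 942, 704 and 862 in sham hearts (log2 fold change -1.88, SE 0.39, adjusted p = 0.0149). Its reads can be shared with the near-identical Acot2. The galectin Lgals4 had 655, 753, 334 and 627 in TAC hearts and 1549, 2296 and 2820 in sham hearts (log2 fold change -1.93, SE 0.30, adjusted p = 0.00491).

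Sbk3 and Sbk2, neighbouring kinase genes on chromosome 7, fell by 2.41 and 2.15 on the log2 scale. Sbk3 had 47.5, 31.1, 35.6 and 87.6 normalized counts with TAC and 276, 182 and 314 in sham hearts. Ano10, of the anoctamin family, had 1921, 1798, 629 and 1550 in TAC hearts and 4972, 5443 and 4381 in sham hearts (log2 fold change -1.86, SE 0.31, adjusted p = 0.00549). Stum, Shisa6 and Ptpru fell by 2.34, 2.07 and 1.56.

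Falls of smaller size but small spread included regulators of cardiac signaling. Rgs2, which shortens signaling through Gq-coupled receptors, had 1042, 889, 796 and 1272 normalized counts in TAC hearts, against 2380, 2225 and 1775 in sham hearts (log2 fold change -1.10, SE 0.18, adjusted p = 0.00491). Mapk14, the stress kinase p38 alpha, had 2877, 3113, 2210 and 2605 with TAC and 4266, 4225 and 4263 in sham hearts (log2 fold change -0.67, SE 0.10, adjusted p = 0.00446). Tbx5, a transcription factor that patterns the heart, had 721, 723, 730 and 835 in TAC hearts and 1361, 1199 and 1345 in sham hearts (log2 fold change -0.79, SE 0.13, adjusted p = 0.00548). The anion exchanger Slc4a3 fell by 0.87, the AMPK subunit Prkab1 by 0.69, the Polycomb protein Cbx7 by 0.76 and the sorting receptor Sorcs2 by 1.07. For Tbx5 and Prkab1 the 4 TAC hearts lay close together, and leaving out TAC replicate 3 changed their log2 fold changes to -0.78 and -0.66.

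The same contrast in WT littermates, TAC over sham, gave more calls: 2881 higher (17.3%) and 2750 lower (16.5%) at an adjusted p under 0.05, and 1099 higher (6.58%) and 826 lower (4.95%) DEGs, from 4 against 4 hearts. Of the 242 higher SIRT5OE DEGs, 209 were also higher WT DEGs, 86.4% of the SIRT5OE and 19.0% of the WT list. Of the 88 lower ones, 68 were also lower WT DEGs, 77.3% of the SIRT5OE and 8.23% of the WT list. The WT log2 fold change had the same sign in 239 of 242 and 86 of 88 DEGs. It was the larger in size in 184 and 54 of them, with a WT median of 2.01 for the higher and -1.86 for the lower. A gene called in one genotype and not in the other is not shown to differ between them, and the interaction of genotype and TAC tests this.

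In that limma test 0 of 16690 genes (0%) had an adjusted p under 0.05, while 2206 had an unadjusted p under 0.05. Without WT TAC replicate 3 there were 45 and without SIRT5OE TAC replicate 1 there was 1. Among the 5 smallest p of the interaction (adjusted p 0.265 to 0.349) was 1 of the 2 entries of Nnt, the mitochondrial transhydrogenase, with 17023, 15190, 16265 and 24495 normalized counts in SIRT5OE TAC and 15914, 17111 and 16192 in SIRT5OE sham hearts (log2 fold change 0.13). In WT hearts this entry had a log2 fold change of -1.01. The other Nnt entry had log2 fold changes of -0.98 in SIRT5OE and -0.64 in WT hearts (interaction adjusted p = 0.709), and reads can be split between the 2 entries. Ttc41 had 155, 115, 117 and 173 counts in SIRT5OE TAC and 146, 119 and 164 in SIRT5OE sham hearts (log2 fold change -0.04), and a WT log2 fold change of -1.54. In SIRT5OE hearts the groups overlapped for Ttc41 and for this Nnt entry. Stress genes had a WT median of 2.72 with 21 of 22 higher, fatty acid genes a WT median of -0.95 with 29 of 33 lower, and mRNAs of the mitochondrial genome a WT median of -0.87 with 12 of 13 lower. The SIRT5OE medians of these lists were 1.55, -0.43 and -0.16, and none of their members passed the interaction test.

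**Figure D5:**
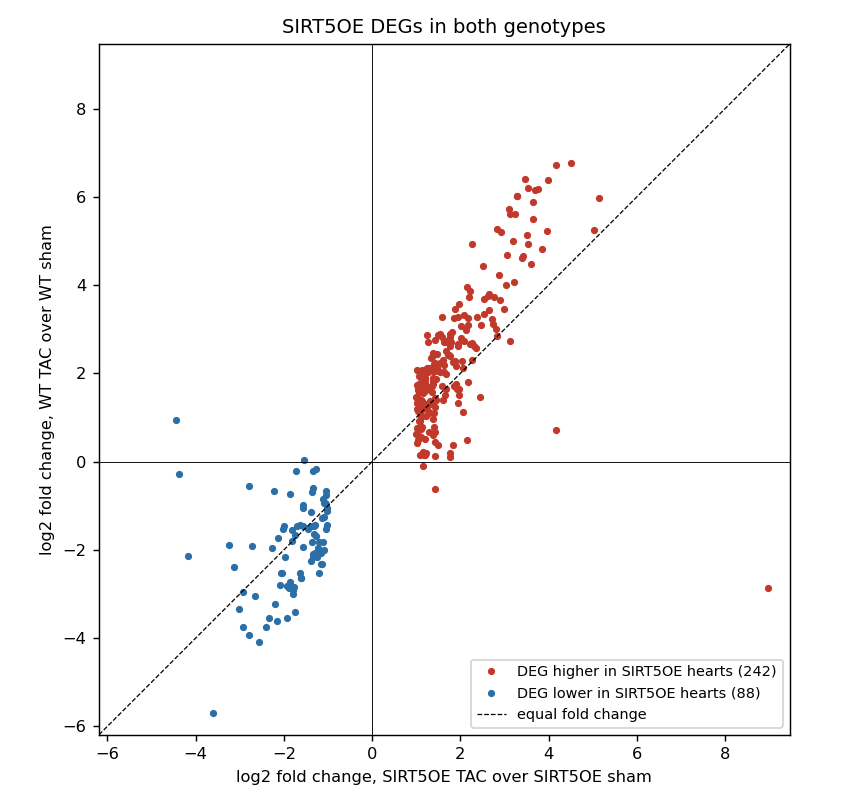
Log2 fold changes of the 330 SIRT5OE DEGs in SIRT5OE TAC over SIRT5OE sham hearts (x axis) and in WT TAC over WT sham hearts (y axis), higher DEGs in red, lower DEGs in blue, with a dashed line of equal change. WT fold changes are larger in size for 184 of 242 higher and 54 of 88 lower DEGs, and selection in SIRT5OE hearts fixes the side of each point on the x axis.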

How the data were processed

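Total RNA of flash-frozen whole hearts was ribodepleted and sequenced by the authors, 1 library per mouse. Reads were pseudoaligned with kallisto (version 0.46.0 in the methods, 0.43.1 in the submitters' processing notes) to mouse cDNA of Ensembl release 101 and summed per gene with tximport 1.18.0. The deposited signal is a normalized count per gene, which the authors obtained by dividing by DESeq2 size factors. Whole reads could not be recovered from it (7.05% to 17.6% of the values of a heart came out whole within 0.02 of a step), so no count model was used and raw depth is unknown. The table held 36727 genes, of which 16690 with at least 10 normalized counts in at least 3 of 15 hearts were kept.

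The log2 of the normalized count plus 1 entered limma 3.58.1 (R 4.3.3), an empirical Bayes fit with mean-variance trend over 15 hearts in 4 groups and Benjamini-Hochberg adjustment over all kept genes. Fold changes are on this scale, which understates changes of low genes. A DEG passed both an adjusted p of 0.05 and a log2 fold change of 1 in size. The fit was tested on simulated data. Alternatives were pseudocounts of 0.5 and 5, other filters and none, upper-quartile and quantile scaling, no trend, array weights, a replicate block, SIRT5OE hearts alone and each heart left out. List counts without SIRT5OE TAC replicate 3, and the SIRT5OE hearts fitted alone without it, were added after the data were seen. Members and gene lists were chosen with earlier results of these data known. Gene positions are from GENCODE M21 (GRCm38), which held 16411 of the kept genes, promoters from RefSeq (GRCm38.p6). Plots used python 3.11.15 with matplotlib 3.10.9.

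Genes were named by rule: Sirt5, then, among genes with a mean of at least 100 normalized counts over the 7 SIRT5OE hearts, non-overlapping groups and no predicted or pseudogene symbol, the 10 largest rises and 10 largest falls among DEGs, the 10 smallest adjusted p in each direction and the 8 largest rises and falls among DEGs without SIRT5OE TAC replicate 3. Added to these were the 5 smallest p of the interaction and, with no limit on level or overlap, the 4 smallest p of each list. Other members of a list are named where the list is described, and some genes the rule names are not reported here. kallisto can split reads between near-identical genes, so pseudogenes, close paralogs and duplicated entries are uncertain.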

Additional observations from a re-analysis of the deposited data

Results flagged for a closer look

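The normalized counts, not their log2, of the 4 SIRT5OE TAC hearts were examined in 68 genes for a heart far from the others. In 18 genes the gap to the nearest heart was larger than Dixon's 95% critical share of the group's range. That share flags about 1 in 20 groups when values are independent and normally distributed. The genes here share the same hearts and were largely named for their change in them, so 18 of 68 is not a test against that rate. Not every gene named above was among the 68. The gap was 0.950 of the range for Nppa and 0.956 for Loxl2, which were not among them. SIRT5OE TAC replicate 3 was the distant heart in 15 of the 18 genes. It was the highest for 13 of them. Their gaps as a share of the range were 0.986 for Col12a1, 0.969 for Col8a1, 0.960 for Dio2, 0.947 for Sparc, 0.936 for Ccn2, 0.927 for Atp6v0a4, 0.919 for Lox, 0.906 for Fstl1, 0.890 for Serpinf1, 0.888 for Xirp2, 0.862 for Il6, 0.858 for Ankrd1 and 0.831 for Bgn. Replicate 3 was the lowest heart for Pfkfb1, at 0.901, and for the macrophage product Retnla, at 0.863. SIRT5OE TAC replicate 2 was the lowest heart for Myoz2, at 0.910, and for Smoc2, at 0.854, and SIRT5OE TAC replicate 4 was the highest for the transcription factor Tbx5, at 0.916.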

How the results depend on the processing

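With an alternative pseudocount, filter, upper-quartile or quantile scaling, or the 7 SIRT5OE hearts fitted alone, each DEG count stayed within 1.5 times the count given above. The 242 higher and 88 lower DEGs became 149 higher without the mean-variance trend, 214 lower with array weights, and 520 higher and 311 lower at the adjusted p alone. Counts at the adjusted p alone, 520 and 311, became 278 and 152 without the trend and 1169 and 966 with array weights, and the cause was not tested. Leaving out 1 heart at a time gave 72 to 292 higher and 9 to 143 lower DEGs, and 97 to 701 higher and 29 to 502 lower genes at the adjusted p alone, the lowest without SIRT5OE sham replicate 3 and the highest without WT TAC replicate 3. The interaction gave 0 to 45 genes. WT DEGs ranged from 906 to 1314 higher and 667 to 1090 lower, and the mitochondrial share difference from -4.233 to -1.864 percentage points. Of 121 named genes called with all hearts, 51 were still called without SIRT5OE sham replicate 3, 58 without sham replicate 1 and 87 without TAC replicate 3, and none changed sign under any of these alternatives. Many of these genes were named for groups that do not overlap. For those, leaving out a heart cannot turn the sign, so the kept sign is no evidence of stability.

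The groups share replicate numbers, but same-numbered hearts did not deviate together (correlations of 0.0753, 0.0213 and -0.026), so the numbers do not pair them. With a replicate block there were 157 higher and 53 lower DEGs, 299 and 161 genes at the adjusted p alone, and 0 in the interaction. With 4 against 3 hearts, low genes and genes that vary between hearts are where a change is least detectable.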

Other observations

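The genes in these paragraphs belong to no list above and were chosen after their values were seen, so they are given as values only. Genes of chromosome segregation and DNA replication stood among the higher DEGs: 15 such genes, among them Incenp, Ndc80, Tpx2, Anln, Tacc3 and Uhrf1, had log2 fold changes of 1.00 to 1.97 in SIRT5OE TAC over SIRT5OE sham hearts. In WT hearts their log2 fold changes were 0.20 to 1.64, and 5 of the 15 had an adjusted p under 0.05 in limma. The interaction of genotype and TAC had an adjusted p of 0.349 to 0.952 for these genes. Tpx2, a spindle assembly factor, had 284, 286, 174 and 340 normalized counts in SIRT5OE TAC replicates 1 to 4, against 53.0, 102 and 84.0 in SIRT5OE sham replicates 1 to 3. Without SIRT5OE TAC replicate 3, 7 of the 15 had an adjusted p under 0.05.

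Secreted modulators of Wnt signaling were also among the higher DEGs. Frzb had 679, 580, 2110 and 669 normalized counts in SIRT5OE TAC hearts and 189, 204 and 179 in SIRT5OE sham hearts, Sfrp2 had 270, 159, 891 and 208 with TAC and 48.2, 90.0 and 72.2 with sham surgery, and Dkk3 had 461, 569, 2809 and 412 with TAC and 113, 135 and 108 with sham surgery. Aldh1a2, which makes retinoic acid, had 490, 394, 765 and 347 in TAC hearts and 217, 208 and 178 in sham hearts. TAC replicate 3 was the highest heart for all 4 of these genes, and every TAC heart was above every sham heart.

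A few abundant or duplicated transcripts varied between hearts of 1 group. Lars2, a mitochondrial leucyl-tRNA synthetase, had 287860, 461460, 618240 and 717310 normalized counts in SIRT5OE TAC hearts and 311320, 191910 and 168100 in SIRT5OE sham hearts (log2 fold change 1.19, limma adjusted p = 0.0331), and the groups overlapped. WT hearts spanned 469880 to 655130 with TAC and 402990 to 679560 with sham surgery. These counts reach those of cardiac actin Actc1, and whether they come from Lars2 mRNA was not tested. The pseudogene Gm12338 was listed at 992, 1834, 2757 and 3242 in SIRT5OE TAC hearts and at 0, 0 and 64.0 in SIRT5OE sham hearts. In WT hearts it was listed at 996, 1269, 1324 and 0 with TAC and at 1058, 858, 3134 and 1647 with sham surgery.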
